A study of Rattus norvegicus with 24 samples.

Results

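The adrenomedullin and RAMP receptor system was followed through 5 genes, which were the peptide precursor gene Adm, the receptor gene Calcrl and the receptor activity-modifying protein genes Ramp1, Ramp2 and Ramp3. The members were the probes that the array annotation assigned to these 5 symbols, out of 13337 genes with a named probe, and the 2 arrays of each rat were averaged. Each of the 5 genes had 1 probe, and all 5 probes were among the 22523 probes in the deposited values. The genes were chosen with results of these same arrays already known, and Ramp2 was among the genes that the study itself had picked from them. The differences of the 5 genes between groups are therefore given as descriptions. Their calls and intervals come from fits to the same arrays and are not read as tests.

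The rats were female, of the Sprague-Dawley strain and aged 3 months, and the tissue was the non-infarcted part of the left ventricle. Rats of the MI+T4 group had the left anterior descending coronary artery tied off to produce a myocardial infarction (MI) and received a subcutaneous thyroxine (T4) pellet of 3.3 mg with a release time of 60 days right after surgery. Rats of the MI group had the same ligation with a placebo pellet, and Sham rats had a suture tied loosely around the artery and the same placebo pellet. Hearts were taken 4 weeks after surgery, the RNA came from the basal slice, and rats with small or very large infarcts had been left out. Each group held 4 rats, and each rat had 2 arrays as technical replicates, the second set of which was run on a second BeadChip, giving 24 arrays. Replicates are numbered 5 to 8 in MI+T4 and MI and 1 to 4 in Sham, and the numbers do not tie a MI+T4 rat to a MI rat.

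Adrenomedullin is a vasodilator peptide that also maintains the barrier of blood and lymphatic vessels. Its receptor is the G protein-coupled receptor CLR, the product of Calcrl, which reaches the cell surface and acquires its ligand preference only together with a RAMP. CLR with RAMP1 is the receptor for calcitonin gene-related peptide (CGRP), whereas CLR with RAMP2 or RAMP3 forms adrenomedullin receptors, and all of them signal mainly through cyclic AMP. In the mouse, loss of Adm, Calcrl or Ramp2 is lethal before birth with defects of the vessels.

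Values are normalized signals on a scale close to log2, in which weak signals are compressed, so that a difference understates the change of a dim probe. Array medians lay between 7.81 and 7.82 and single values between 6.88 and 16.47. The 2 arrays of a rat correlated at 0.997 to 0.998, arrays of different rats had a median correlation of 0.992, and each of the 24 arrays had its rat's second array as its nearest. The 10 measured heart muscle markers averaged 14.21 to 14.29 in MI+T4 rats, 14.08 to 14.22 in MI rats and 14.17 to 14.27 in Sham rats, so heart muscle RNA was present in every rat. This does not test which part of the heart was sampled. Across all probes, the fit with limma, adjusted by the Benjamini-Hochberg method at 0.05, called 814 probes in MI against Sham, 283 in MI+T4 against Sham and 0 in MI+T4 against MI, where 1670 had an unadjusted p under 0.05.

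Ramp2 was the gene of the system that separated the infarcted rats of both groups from the sham-operated rats. It was about 0.4 log2 units higher in both infarcted groups than in Sham, with no overlap between rats, and it differed little between MI+T4 and MI. Calcrl, the receptor that RAMP2 escorts, was close to the array median and differed from Sham by about 0.1 or less in the other direction. Adm, Ramp1 and Ramp3 had overlapping groups in all 3 comparisons.

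**Figure D1:**
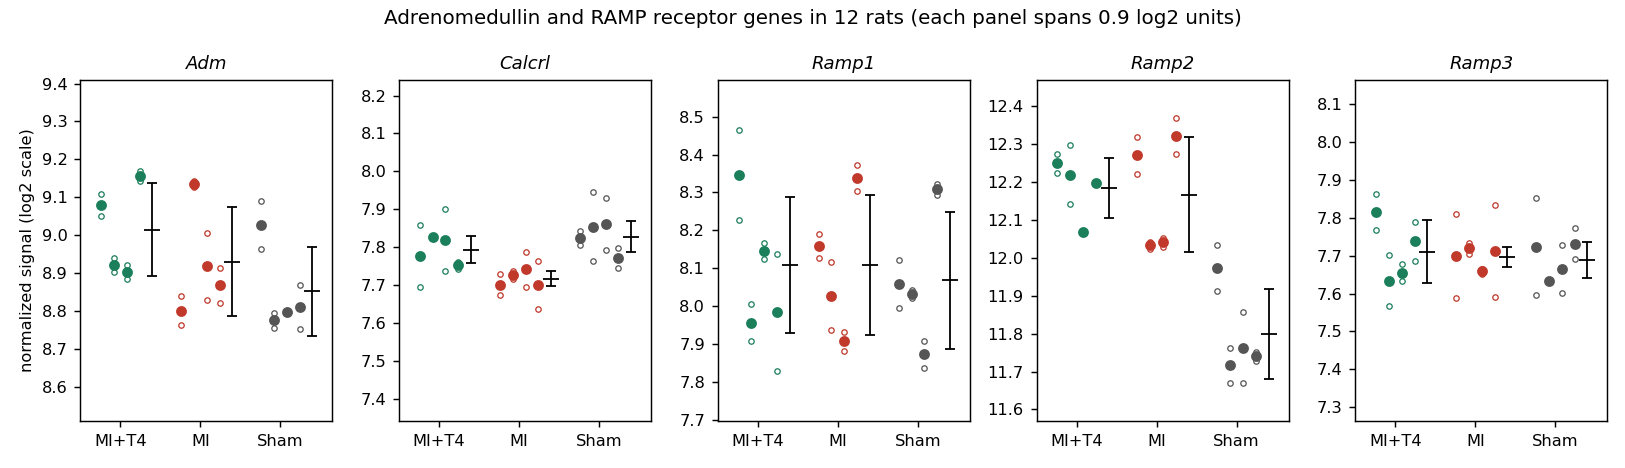
Normalized signal of Adm, Calcrl, Ramp1, Ramp2 and Ramp3 (log2 scale) in the 4 rats of the MI+T4, MI and Sham groups; filled points are rats, open points their 2 arrays, and the black bar is the mean ± SD of the 4 rats. Ramp2 lies between 12.03 and 12.32 in the 8 infarcted rats and between 11.72 and 11.97 in the 4 Sham rats, while the groups of Adm, Ramp1 and Ramp3 overlap.

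The ligand gene Adm encodes the precursor that is cut and amidated to adrenomedullin. Its signal was 9.08, 8.92, 8.90 and 9.16 in MI+T4 replicates 5 to 8, 8.80, 9.13, 8.92 and 8.87 in MI replicates 5 to 8, and 9.03, 8.77, 8.80 and 8.81 in Sham replicates 1 to 4. All 4 MI+T4 rats, at 8.90 or above, lay above Sham replicates 2 to 4. The overlap with Sham came from Sham replicate 1, which at 9.03 stood above the other 3 Sham rats. In MI, replicate 6 was the highest rat at 9.13. The mean was 9.01 ± 0.12 in MI+T4, 8.93 ± 0.14 in MI and 8.85 ± 0.12 in Sham (SD, n = 4 each). The difference was 0.16 ± 0.06 (moderated SE) between MI+T4 and Sham, 0.08 ± 0.06 between MI and Sham, and 0.08 ± 0.06 between MI+T4 and MI. Here and below, the SE printed beside a difference is that of the fit on both arrays of each rat. With the 2 arrays averaged before the fit, the SE was 0.08 for Adm and Ramp2, 0.11 for Ramp1, 0.03 for Calcrl and 0.04 for Ramp3. Leaving out Sham replicate 1 gave 0.22 for MI+T4 against Sham and 0.14 for MI against Sham, and leaving out MI replicate 6 gave 0.01 for MI against Sham. The ordering of the 3 means therefore rested on differences of the size of the spread between rats. The 2 arrays of a rat told the same rats apart, with a within-rat correlation of 0.81 and a median gap of 0.05 between them.

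The receptor gene Calcrl was close to the array median, with a mean signal of 7.78. Its signal was 7.78, 7.83, 7.82 and 7.75 in MI+T4 replicates 5 to 8, 7.70, 7.73, 7.74 and 7.70 in MI replicates 5 to 8, and 7.82, 7.85, 7.86 and 7.77 in Sham replicates 1 to 4. All 4 MI rats lay below all 4 MI+T4 rats and below all 4 Sham rats, with a gap of 0.01 to the lowest MI+T4 rat and 0.03 to the lowest Sham rat. Calcrl averaged 7.79 ± 0.04 in MI+T4, 7.72 ± 0.02 in MI and 7.83 ± 0.04 in Sham (SD, n = 4 each), a difference of -0.11 ± 0.04 for MI against Sham, 0.08 ± 0.04 for MI+T4 against MI and -0.03 ± 0.04 for MI+T4 against Sham (moderated SE). The 2 arrays of a rat differed by a median of 0.07 and by up to 0.18, which exceeds those gaps, and the within-rat correlation of the arrays was -0.45. The difference of MI from Sham was -0.05 on the first technical replicates and -0.17 on the second, and that of MI+T4 from MI was 0.02 and 0.14. The limma fit on rat means takes its spread from the rats and from all probes together. Its 95% interval of the Calcrl difference was -0.18 to -0.04 for MI against Sham and 0.01 to 0.15 for MI+T4 against MI. These intervals allow neither for the choice of the gene nor for the number of probes, and are not read as a test. After adjustment over all probes, that fit did not call Calcrl in either comparison.

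Ramp1, whose product turns CLR into the CGRP receptor, spread widely within each group and hardly between groups. Its signal was 8.35, 7.96, 8.15 and 7.98 in MI+T4 replicates 5 to 8, 8.16, 8.03, 7.91 and 8.34 in MI replicates 5 to 8, and 8.06, 8.03, 7.87 and 8.31 in Sham replicates 1 to 4. Every group had 1 rat at 8.31 or above and 1 rat at 7.96 or below. The means were 8.11 ± 0.18 in MI+T4, 8.11 ± 0.18 in MI and 8.07 ± 0.18 in Sham (SD, n = 4 each), and the differences were 0.04 ± 0.09 for MI against Sham, 0.00 ± 0.09 for MI+T4 against MI and 0.04 ± 0.09 for MI+T4 against Sham (moderated SE). The repeat arrays showed the same spread, with a within-rat correlation of 0.75, so most of the variation of Ramp1 lay between rats of the same group.

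Ramp2, whose product makes CLR an adrenomedullin receptor, had a mean signal of 12.05, well above the array median. Its signal was 12.25, 12.22, 12.07 and 12.20 in MI+T4 replicates 5 to 8, 12.27, 12.03, 12.04 and 12.32 in MI replicates 5 to 8, and 11.97, 11.72, 11.76 and 11.74 in Sham replicates 1 to 4. The 8 infarcted rats were all above the 4 Sham rats, by a margin of 0.06 between the lowest MI rat and the highest Sham rat and of 0.10 between the lowest MI+T4 rat and the same Sham rat. The MI group was split, with replicates 5 and 8 above and replicates 6 and 7 below every MI+T4 rat, and the MI+T4 rats filled the space between. The means were 12.18 ± 0.08 in MI+T4, 12.17 ± 0.15 in MI and 11.80 ± 0.12 in Sham (SD, n = 4 each).

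Ramp2 was 1.31-fold higher in MI+T4 than in Sham, a log2 difference of 0.39 ± 0.06 (moderated SE), and 1.29-fold higher in MI than in Sham, a difference of 0.37 ± 0.06. These comparisons share the 4 Sham rats. Between MI+T4 and MI the difference was 0.02 ± 0.06, a ratio of 1.01. The limma fit on rat means, with its moderated SE, gave this difference a 95% interval of -0.15 to 0.18. The interval is narrower than the differences from Sham and does not show that the groups were alike. On the first and second technical replicates taken alone, MI+T4 exceeded Sham by 0.36 and 0.41 and MI exceeded Sham by 0.39 and 0.34. The within-rat correlation of the Ramp2 arrays was 0.74. When each of the 8 rats compared was left out in turn, the difference ranged over 0.36 to 0.44 for MI+T4 against Sham and over 0.32 to 0.43 for MI against Sham, the lowest value of MI against Sham coming without MI replicate 8 and the highest without Sham replicate 1.

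**Figure D2:**
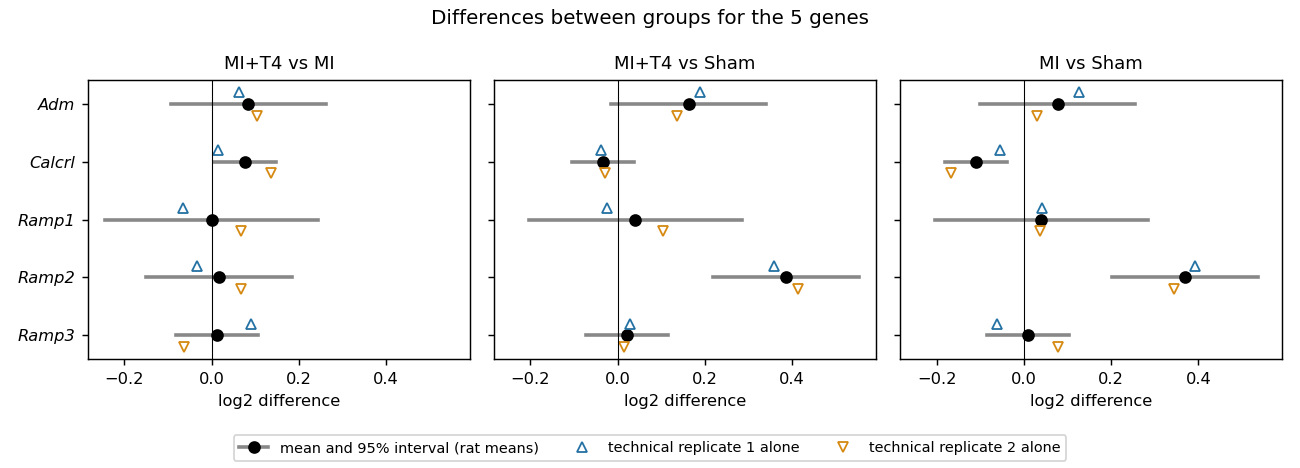
Difference in log2 units for Adm, Calcrl, Ramp1, Ramp2 and Ramp3 in MI+T4 against MI, MI+T4 against Sham and MI against Sham. Black points are differences of the group means, and triangles the values from each technical replicate alone. Grey bars are unadjusted 95% intervals of the limma fit on rat means, with moderated SE (n = 4 per group). Ramp2 stands at 0.39 and 0.37 against Sham and at 0.02 between MI+T4 and MI, and the triangles of Ramp3 fall on opposite sides of 0 in MI+T4 against MI and in MI against Sham.

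Ramp3 also forms an adrenomedullin receptor with CLR and, in the mouse, is not needed for survival to birth. Its mean signal of 7.70 lay below the array median. It had 7.81, 7.63, 7.66 and 7.74 in MI+T4 replicates 5 to 8, 7.70, 7.72, 7.66 and 7.71 in MI replicates 5 to 8, and 7.72, 7.63, 7.66 and 7.73 in Sham replicates 1 to 4. The groups overlapped throughout, and the means were 7.71 ± 0.08 in MI+T4, 7.70 ± 0.03 in MI and 7.69 ± 0.05 in Sham (SD, n = 4 each). The differences were 0.02 ± 0.05 for MI+T4 against Sham, 0.01 ± 0.05 for MI against Sham and 0.01 ± 0.05 for MI+T4 against MI (moderated SE). The sign of the difference between MI and Sham turned with the technical replicate, at -0.06 on the first and 0.08 on the second, and the repeat arrays had a within-rat correlation of -0.20. Ramp3 thus showed no difference between groups beyond its SE, and what size of difference could be detected at this signal was not tested.

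**Figure D3:**
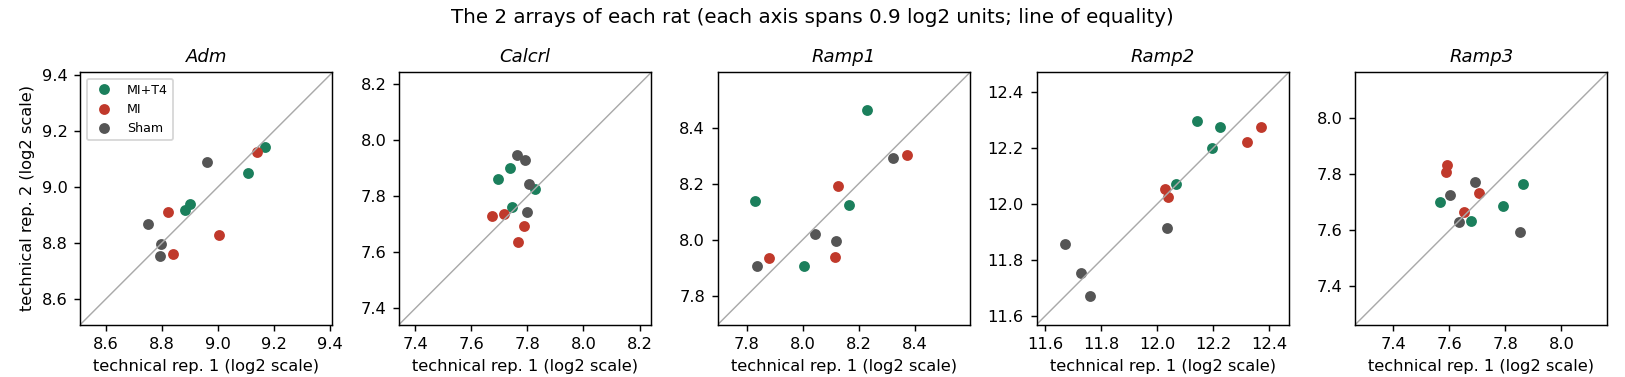
Signal of each gene on the 2 arrays of each rat (first technical replicate on the horizontal axis, second on the vertical axis, log2 scale), with MI+T4, MI and Sham rats in colour and the line of equality. The arrays order the rats alike for Adm, Ramp1 and Ramp2 (within-rat correlations of 0.81, 0.75 and 0.74) and not for Calcrl and Ramp3 (-0.45 and -0.20).

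Counted against the whole array, 1 of the 5 genes was called in MI against Sham, where 3.61% of all probes were called, 1.89% as higher and 1.72% as lower. In MI+T4 against Sham 1 of 5 was called, where 1.26% of all probes were, 0.719% as higher and 0.537% as lower. That gene was Ramp2, higher in both. None of the 5 genes was called in MI+T4 against MI, where 0% of all probes were called. The rats of MI and Sham did not overlap for 2 of the 5 genes, Ramp2 (higher) and Calcrl (lower), beside 5.8% of all probes (2.63% higher and 3.17% lower). Those of MI+T4 and Sham did not overlap for Ramp2 (higher), beside 4.76% of all probes (2.33% higher and 2.44% lower), and those of MI+T4 and MI for Calcrl (higher), beside 2.99% (1.63% higher and 1.36% lower). The median difference of the 5 genes was 0.04 in MI against Sham, 0.04 in MI+T4 against Sham and 0.02 in MI+T4 against MI, and the median of all probes was 0.00 in each comparison. As the genes were chosen with these comparisons in view, nothing is read from the counts. When the 2 arrays of each rat were averaged before the limma fit, Ramp2 was not called in any comparison. That fit called 1 probe in MI+T4 against Sham, 0 in MI against Sham and 0 in MI+T4 against MI, with 1728, 2561 and 1228 at an unadjusted p under 0.05.

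The members were also set against each other and against the other genes over the 12 rats, as a description. The rats share arrays and normalization, and groups that differ raise such correlations, so each is given again after group means were subtracted. Ramp2 and Calcrl had a Pearson correlation of -0.61 (-0.35 after subtraction), and Adm and Ramp2 had 0.41 (0.06 after subtraction). Ramp3 had 0.61 with Ramp1 (0.61 after subtraction), 0.57 with Adm (0.57), 0.32 with Ramp2 (0.39) and -0.41 with Calcrl (-0.74). Ramp1 had -0.40 with Calcrl (-0.62 after subtraction), 0.30 with Ramp2 (0.38) and -0.05 with Adm (-0.12), and Adm had -0.24 with Calcrl (-0.27). For Calcrl and Ramp3 these values rest on repeat arrays that correlated negatively within rats. The genes whose rat means followed Ramp2 most closely, among 8011 genes with a mean signal at or above the probe median, were Adamts1, a secreted protease (0.94, and 0.84 after subtraction), the alpha-globin gene Hba-a1 (0.92 and 0.86), Elmo1, an activator of Rac signalling (0.91 and 0.69), the beta-globin gene Hbb-b1 (0.90 and 0.73) and Abcb4, a phospholipid transporter (0.89 and 0.67). For Adm they were Srp14 (0.84 and 0.79), Oas1k, Bcl2l1, Rdx and Sumo2, and for Ramp1 they were Il20rb (0.86 and 0.85), Spint2, Cfd, F5 and Reln. For Calcrl they were Gdpd1 (0.92 and 0.78), Rab2a, Vps4a, Dnajc18 and Gpr180, and for Ramp3 they were Mgst2 (0.85 and 0.85), Smarcd2, Zfp61, Scaf1 and Tgfbi.

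Among the genes around the system, 2 differed from Sham in both infarcted groups, and they were the amidating enzyme and the decoy receptor. Like Ramp2, both were among the genes that the study had picked from these arrays, Ackr3 under its older name CXCR7. So were Nppa, Nppb and Vegfa, and several markers read below, among them Pdgfra, Dpt, Pi16, Cd248, Mfap5, Dkk3 and Hbb. Others were Lyve1 and Prph, under the names XLKD1 and PRPH1, and Abcc9, which the study had picked in MI+T4 against MI. The p-values of these genes are therefore not independent support. Pam encodes peptidylglycine alpha-amidating monooxygenase, which adds the terminal amide that adrenomedullin and CGRP need to act. Its signal was 13.38, 13.09, 13.58 and 13.16 in MI+T4 replicates 5 to 8, 13.15, 12.98, 13.31 and 13.34 in MI replicates 5 to 8, and 12.82, 12.76, 12.72 and 12.59 in Sham replicates 1 to 4. All infarcted rats were above all Sham rats. Pam rose by 0.58 ± 0.08 log2 units in MI+T4 against Sham (moderated SE, limma adjusted p = 0.0003) and by 0.47 ± 0.08 in MI against Sham ( limma adjusted p = 0.0016), and the difference between MI+T4 and MI was 0.11 ± 0.08 (limma adjusted p = 0.86).

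Ackr3 encodes a scavenger receptor that binds the chemokine CXCL12 and, in the mouse, takes up adrenomedullin. Its signal was 11.01, 10.74, 10.69 and 10.72 in MI+T4 replicates 5 to 8, 10.90, 10.78, 10.80 and 10.85 in MI replicates 5 to 8, and 10.42, 10.28, 10.49 and 10.35 in Sham replicates 1 to 4. The infarcted rats again lay above every Sham rat, and MI+T4 replicate 5 stood above the other 3 rats of its group. Ackr3 rose 1.32-fold in MI+T4 against Sham (0.40 ± 0.06, moderated SE, limma adjusted p = 0.0008) and 1.36-fold in MI against Sham (0.45 ± 0.06, limma adjusted p = 0.0003), and MI+T4 and MI differed by -0.04 ± 0.06 (limma adjusted p = 0.96). Over the 12 rats Ramp2 correlated at 0.88 with Ackr3 and at 0.76 with Pam, which fell to 0.49 and 0.09 after subtraction of the group means. In the limma fit on rat means, the adjusted p was 0.14 for Ackr3 and 0.18 for Pam in MI+T4 against Sham, and 0.098 for Ackr3 and 0.17 for Pam in MI against Sham, so neither passed there. With MI replicates 5 and 8 both left out, Pam in MI exceeded Sham by 0.43 with a limma adjusted p of 0.087, whereas Ackr3 and Pam kept passing against Sham when any 1 rat was left out.

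**Figure D4:**
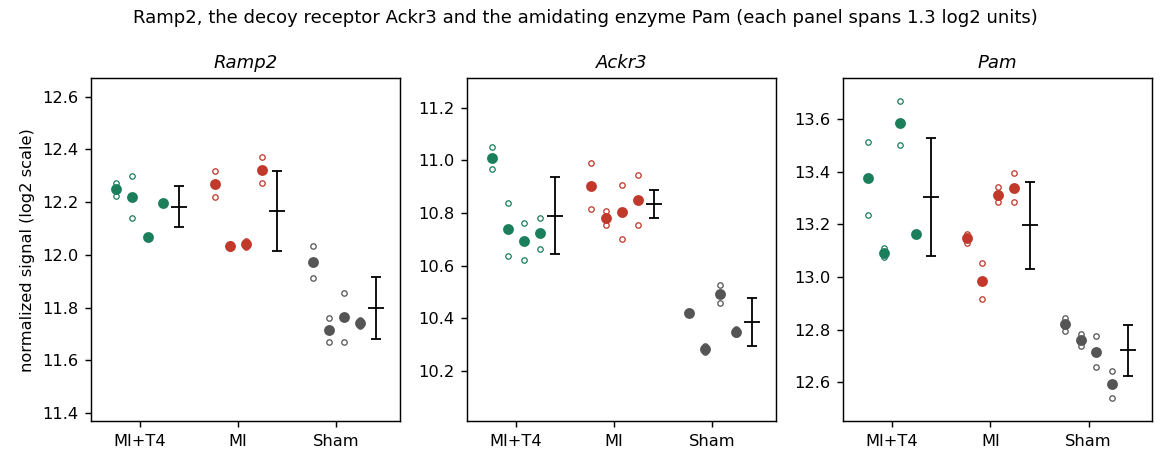
Normalized signal of Ramp2, Ackr3 and Pam (log2 scale) in the 4 rats of the MI+T4, MI and Sham groups; filled points are rats, open points their 2 arrays, and the black bar is the mean ± SD of the 4 rats. In each of the 3 genes every infarcted rat lies above every Sham rat, and the MI+T4 and MI rats overlap.

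The other 8 measured genes of the list of ligands, related receptors and clearance did not pass the test in any comparison, and 7 of the 10 measured were within 0.5 of the array median or below it. Adm2, the precursor of intermedin, Calca and Calcb, the precursors of the CGRPs, and Iapp, the precursor of amylin, differed by -0.01, -0.03, -0.07 and -0.04 in MI against Sham and by -0.03, -0.05, 0.03 and -0.01 in MI+T4 against Sham. Calcr, the calcitonin receptor, differed by 0.01 in MI against Sham and in MI+T4 against Sham, and Gpr182, a further decoy receptor, by 0.02 and -0.03. Crcp, the CGRP receptor component protein, differed by 0.05 and 0.03, and Mme, the peptidase neprilysin, by -0.07 and -0.03, in the same comparisons. CGRP in the heart is made mostly in sensory neurons, whose messenger RNA sits in ganglia outside the tissue sampled.

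Genes that RAMPs or adrenomedullin receptors work with showed few calls. Of 9 measured receptors other than CLR that can pair with RAMPs, 0 passed in any comparison, with 2, 1 and 0 of them at an unadjusted limma p under 0.05 in MI+T4 against Sham, MI against Sham and MI+T4 against MI. The secretin receptor gene Sctr, singled out after its values were seen, had the lowest difference of the list, -0.67 in MI+T4 against Sham (limma adjusted p = 0.22) and -0.80 in MI against Sham (limma adjusted p = 0.056). Of 18 genes of G protein, cyclic AMP and nitric oxide signalling, 0 passed in any comparison, with 3, 2 and 3 at an unadjusted limma p under 0.05 in the same order. Their differences ran from -0.16 (Rapgef4) to 0.12 (Nos3) in MI against Sham, from -0.17 (Prkar2b) to 0.19 (Rapgef3) in MI+T4 against Sham and from -0.23 (Prkar2b) to 0.17 (Rapgef3) in MI+T4 against MI.

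Adm is a known target of hypoxia signalling, and the measured hypoxia genes were read beside it. Of 22, 1 fell and 0 rose in MI against Sham, and 0 passed in MI+T4 against Sham or in MI+T4 against MI. At an unadjusted limma p under 0.05 there were 5 of 22 in MI+T4 against Sham, 6 of 22 in MI against Sham and 4 of 22 in MI+T4 against MI, beside 2304, 3226 and 1670 of all 22523 probes. The gene that fell was Vegfa, the vascular endothelial growth factor, at 9.82 in MI and 10.20 in Sham (difference -0.38 ± 0.09, moderated SE, limma adjusted p = 0.02). Vegfa no longer passed when Sham replicate 2, 3 or 4 or MI replicate 5 or 8 was left out, with limma adjusted p between 0.061 and 0.15 and a difference of -0.30 without MI replicate 5. Without MI replicate 7, Vegfa passed in MI+T4 against MI (0.40, limma adjusted p = 0.033). The median difference of the list was 0.00 in MI against Sham, 0.02 in MI+T4 against Sham and -0.01 in MI+T4 against MI.

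Of 19 vasoactive peptide and receptor genes, 2 rose against Sham in both infarcted groups, and both encode natriuretic peptides of stressed heart muscle. Nppa rose by 2.07 ± 0.39 in MI+T4 against Sham (limma adjusted p = 0.005) and by 2.26 ± 0.39 in MI against Sham (limma adjusted p = 0.002). The SD of Nppa over the rats of a group was 1.12 in MI+T4, 0.65 in MI and 1.05 in Sham, so this SE understates the error between rats. Nppb rose by 1.11 ± 0.16 in MI+T4 against Sham (limma adjusted p = 0.0004) and by 0.88 ± 0.16 in MI against Sham (limma adjusted p = 0.003). The differences of Ramp2, Ackr3 and Pam were thus all smaller than those of the natriuretic peptides, on the same log2 scale. In the limma fit on rat means, 0 genes of the lists around the system were called, so Nppa, Nppb and Vegfa did not pass there.

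In ventricle sampled as a whole, fewer cells of a type and less RNA per cell cannot be told apart, and marker genes of the cells that the sample holds were read beside Ramp2. Marker calls, here and below, come from the limma fit on both arrays of each rat. On rat means that fit called 0 of all probes in MI against Sham and 1 in MI+T4 against Sham. RAMP2 is known chiefly from vascular endothelium. Of 16 measured blood endothelial markers, 1 rose in MI+T4 against Sham and 0 in MI against Sham, where 3 had an unadjusted limma p under 0.05. The one was Icam2, with a difference of 0.25 ± 0.05 in MI+T4 against Sham (limma adjusted p = 0.004). The mean level of these markers was 9.73 to 9.85 in MI+T4 rats, 9.75 to 9.91 in MI rats and 9.71 to 9.76 in Sham rats, and their median difference was 0.04 in MI+T4 against Sham and 0.05 in MI against Sham. Of 5 measured lymphatic markers 1 rose in MI against Sham, Lyve1, by 0.67 ± 0.14 (limma adjusted p = 0.007, and 0.063 without MI replicate 8), and 0 in MI+T4 against Sham. All 5 differences from Sham were positive in both infarcted groups, with a median of 0.32 in MI and 0.15 in MI+T4. Of 11 smooth muscle and pericyte markers 1 fell in MI+T4 against Sham, Abcc9, by -0.32 ± 0.06 (limma adjusted p = 0.007, and 0.063 without MI+T4 replicate 7), and 0 passed in MI against Sham. Without MI+T4 replicate 8, Abcc9 also passed in MI+T4 against MI (limma adjusted p = 0.046) and Lyve1 in MI+T4 against Sham (limma adjusted p = 0.014).

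Fibroblast markers and some blood cell markers also differed between infarcted and Sham rats. All 13 fibroblast markers were higher in MI than in Sham, with a median difference of 0.66 and 11 at an unadjusted limma p under 0.05. In MI+T4 against Sham 12 were higher and 1 lower, with a median of 0.25 and 6 at that level. In MI+T4 against MI 1 was higher and 12 lower, with a median of -0.32, 6 at that level and 0 called. Of the 13 markers, 3 were called higher in MI+T4 against Sham (Pdgfra, Pi16 and Cd248). In MI against Sham 6 were called higher (the same 3 with Col3a1, Dpt and Mfap5). In MI+T4 against Sham, Pi16 and Cd248 were lost without Sham replicate 1 or 2 or MI+T4 replicate 5, 6 or 7 (limma adjusted p up to 0.18), and Pdgfra without Sham replicate 1 or MI+T4 replicate 5 or 7 (up to 0.072). In MI against Sham, Col3a1 was lost without Sham replicate 1, 2 or 4 or MI replicate 5 or 8 (up to 0.18), Dpt without Sham replicate 2 or MI replicate 5 or 8 (up to 0.094) and Pdgfra without MI replicate 5 or 8 (up to 0.060). Mfap5 passed in MI+T4 against Sham without MI replicate 5 or 7 or MI+T4 replicate 8. Their mean level was 11.37 to 12.33 in MI+T4 rats, 11.62 to 12.71 in MI rats and 11.33 to 11.82 in Sham rats. MI replicates 5 and 8, the highest of the 12 rats in Ramp2, were also the highest in these markers, with a median excess over the Sham mean of 1.19 and 1.17. The same 2 rats were the highest in the lymphatic markers, at 0.43 and 1.00. MI replicates 6 and 7 had a fibroblast excess of 0.26 and -0.03 and a Ramp2 signal of 12.03 and 12.04. In MI+T4 replicates 5 to 8 the fibroblast excess was 0.35, 0.19, 0.89 and -0.08, and Ramp2 was 12.25, 12.22, 12.07 and 12.20. Of 5 blood cell markers 2 rose, the globin genes Hbb (0.51 ± 0.12 in MI+T4 against Sham, limma adjusted p = 0.023, and 0.57 ± 0.12 in MI against Sham, limma adjusted p = 0.006) and Hba-a1 (0.50 ± 0.12, limma adjusted p = 0.033, and 0.54 ± 0.12, limma adjusted p = 0.011). Both globin calls were lost in MI+T4 against Sham without Sham replicate 3 or 4 or MI+T4 replicate 5 or 6, and both were lost in MI against Sham without MI replicate 8. The call of Hba-a1 was also lost without Sham replicate 2 in MI+T4 against Sham, and without Sham replicate 3 or MI replicate 5 in MI against Sham. The mean level of the blood cell markers was 10.73 to 10.97 in MI+T4 rats, 10.80 to 11.10 in MI rats and 10.60 to 10.72 in Sham rats. The part of any of these cells in the Ramp2 difference was not tested. With MI replicates 5 and 8 both left out, Ramp2 in MI exceeded Sham by 0.24.

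**Figure D5:**
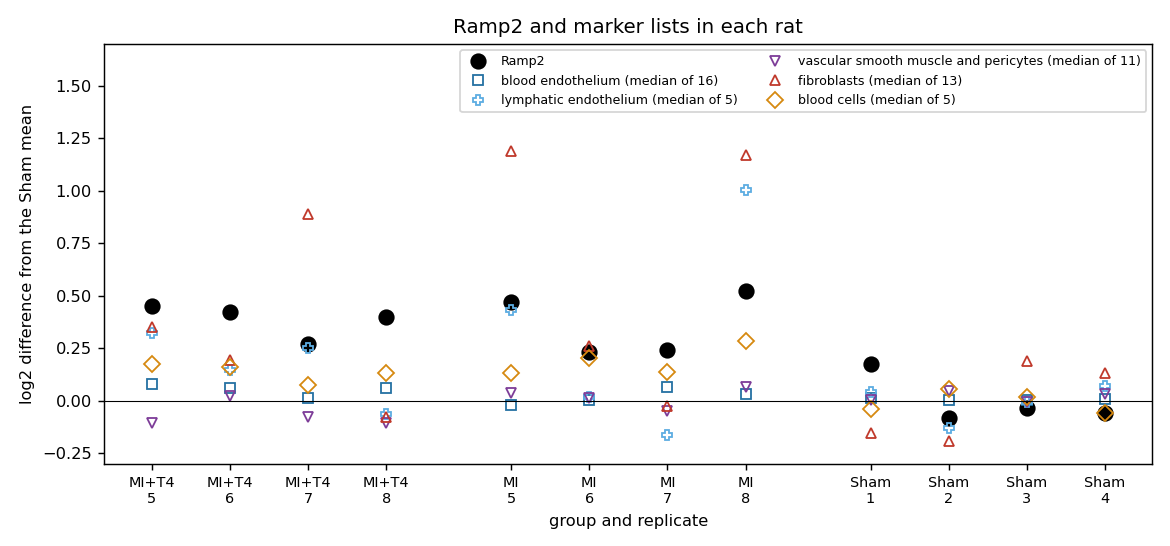
Difference from the Sham mean (log2 units) of Ramp2 (black) and of the median of the blood endothelial, lymphatic endothelial, smooth muscle and pericyte, fibroblast and blood cell marker lists in each of the 12 rats, ordered MI+T4, MI and Sham. Ramp2 lies higher in all 8 infarcted rats than in the 4 Sham rats. Among the infarcted rats, the fibroblast markers range from -0.08 in MI+T4 replicate 8 to 1.19 in MI replicate 5. The lymphatic markers range from -0.16 in MI replicate 7 to 1.00 in MI replicate 8.

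Pam is also abundant in atrial muscle, and 8 atrial genes were read beside it, Pam among them. Of these, 2 rose in MI+T4 against Sham, Pam and Nppa, and 3 rose in MI against Sham, Dkk3 (0.60) in addition, which also passed in MI+T4 against Sham without MI replicate 8 or MI+T4 replicate 6. In each infarcted group 6 of the 8 were higher than Sham and 2 lower, with a median difference of 0.25 in MI and 0.20 in MI+T4. At an unadjusted limma p under 0.05 there were 3 in MI and 5 in MI+T4. The mean level of the 8 genes was 10.09 to 10.93 in MI+T4 rats, 10.18 to 10.72 in MI rats and 9.46 to 10.40 in Sham rats, and the ranges overlapped. MI+T4 replicates 5 and 7, both at 10.93, were also the highest of their group in Pam. MI replicate 7, the lowest MI rat at 10.18, had Pam at 13.31, above MI replicates 5 and 6. Of 12 nerve and glia markers 1 rose in MI against Sham, Prph (0.57, with a call that was lost without Sham replicate 2 or MI replicate 5 or 8), and of 9 macrophage markers 0 passed in any comparison. However, 8 of the 9 macrophage markers were higher than Sham in each infarcted group, with a median difference of 0.24 in MI and 0.27 in MI+T4. At an unadjusted limma p under 0.05 there were 4 in MI against Sham and 3 in MI+T4 against Sham. The part of atrial tissue in the Pam difference was not tested.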

How the data were processed

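Total RNA from non-infarcted left ventricle of 12 rats was hybridised to Illumina RatRef-12 BeadChips, 2 arrays per rat. The deposited values were, per the methods, made by the authors with a variance-stabilizing transformation close to log2 that uses the bead replicates of each array, followed by robust spline normalization. The authors' own tests left out undetected genes, whereas the deposited table and the fits here keep all 22523 probes. The scale of the deposited log2 values has no unit of its own, array data have no read depth, and the number of rats, 4 per group, limits the precision. A second table of non-normalized signals was not used, because its 48 columns could not be tied to a sample. Probe sequences and a genome build were not used here, so no positions are given.

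Probes were named by the array annotation, with symbols updated through a RefSeq gene table for 13752 of 13793 probes, and 8730 probes had no symbol. A gene with several probes was read on the probe with the highest mean. All 22523 probes were fitted in limma 3.58.1 (R 4.3.3) with 3 group means and rat as a random block (consensus correlation 0.24), as in the methods, and adjusted p-values are Benjamini-Hochberg values within each comparison, with every probe counted. The fit was tested on simulated data. The rats are separate animals. Because the single consensus correlation was below that of many probes (median 0.76 among the probes called in MI against Sham), the fit was repeated on the mean of the 2 arrays of each rat. For such probes the moderated SE of the fit on both arrays understates the error between rats. Other alternatives were robust and trended variances, only the compared groups, 1 technical replicate, the BeadChip as a block, bright probes, a joint adjustment, the replicate number as a block and each rat left out. For MI+T4 and MI, which share replicate numbers, same-numbered rats had correlations of 0.11, 0.25, -0.53 and -0.48, so the numbers were not taken as pairs.

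Members, gene lists and tests were chosen with earlier results of these data known. The members were all named, and from every other list up to 6 called genes of the largest difference per comparison, all genes of the ligand list, and the 5 genes most correlated with each member. No p-value is printed for the members, and their calls, which come from the same limma fit, are given only beside those of all probes. Some listed markers, such as Pecam1, Kdr and Acta2, were not analysed here.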

Additional observations from a re-analysis of the deposited data

Results flagged for a closer look

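In 31 named genes and 3 groups each, 6 sets of 4 rats held 1 rat whose gap to the nearest other made up more of the range than Dixon's 95% critical value allows, and chance flags about 1 in 20 groups. Adm was 9.03 in Sham replicate 1, against 8.77 to 8.81 in the other Sham rats. Ackr3 was 11.01 in MI+T4 replicate 5, against 10.69 to 10.74 in the other MI+T4 rats. Adm2 was 7.71 in Sham replicate 4, against 7.57 to 7.59 in the other Sham rats. Crcp was 9.84 in MI replicate 7, against 9.98 or more in the other MI rats. Icam2 was 11.44 in MI replicate 8, against 11.35 to 11.36 in the other MI rats. Nppb was 14.36 in MI replicate 6, against 14.76 to 14.83 in the other MI rats. Of the 5 members, only Adm had such a rat, and its separate value is given with the comparison.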

How the results depend on the processing

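Ramp2 kept its direction against Sham under every alternative run, from 0.36 to 0.44 in MI+T4 against Sham and from 0.24 to 0.43 in MI against Sham. The number of probes called depended on the treatment of the repeat arrays. On rat means, on the first and on the second technical replicates alone, the fit called 1, 1 and 1 probes in MI+T4 against Sham (283 as reported) and 0, 0 and 3 in MI against Sham (814), and 0, 0 and 0 pathway genes in MI+T4 against Sham (4) and 0, 0 and 0 in MI against Sham (5). Only the compared groups gave 440 probes in MI+T4 against Sham and 1 in MI+T4 against MI, the brighter probes alone gave 173 in MI+T4 against Sham, and in MI+T4 against MI robust and trended variances gave 1 and adjustment over the 3 comparisons together 74. Leaving out 1 rat at a time gave 97 to 585 probes and 4 to 7 pathway genes in MI+T4 against Sham, 193 to 1574 probes and 4 to 8 pathway genes in MI against Sham, and 0 to 76 probes and 0 to 2 pathway genes in MI+T4 against MI. With the replicate number as a block, which does not pair the rats, 37 probes were called in MI+T4 against MI, and 0 when this block was used on rat means, an alternative chosen after seeing the data. Also chosen after seeing the data, leaving out MI replicates 5 and 8 together gave 565 probes in MI+T4 against Sham, 31 probes and 1 pathway gene in MI against Sham, 1 probe in MI+T4 against MI, and a Ramp2 difference of 0.15 in MI+T4 against MI. On the first and second technical replicates alone, Calcrl differed by -0.054 and -0.17 in MI against Sham and by 0.016 and 0.14 in MI+T4 against MI, and Ramp3 by -0.061 and 0.079 and by 0.090 and -0.064. The cause of these differences was not tested. No called value changed sign. Signal over background was not measured here.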
